A study of Mus musculus with 14 samples.

Results

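H3K27ac was examined at 10 genes that encode lineage-determining transcription factors, the 6 GATA factor genes Gata1 to Gata6 and the 4 myogenic factor genes Myod1, Myf5, Myf6 and Myog. Their H3K27ac sites were taken as all sites of the deposited list that overlapped the gene body or lay within 20 kb of either end. This gave 36 of the 122228 sites in the list, and the 10 genes were 10 of 21755 protein-coding genes on chromosomes 1 to 19 and X. The data came from immortalised mouse embryo fibroblasts (iMEF), in which an exon of both endogenous Ash2l alleles had been deleted through Cre-ER and a lentivirally introduced FKBP-ASH2L fusion protein, carrying human ASH2L, kept the cells dividing. Per the study's methods and legends, the cells belonged to 1 selected clone, NG3, and the fusion protein was degraded upon addition of the small molecule dTAG-13. Chromatin immunoprecipitation with an antibody to acetylated lysine 27 of histone H3 had been sequenced from 12 libraries, 2 of them from cells without dTAG and 2 from each of 5 times of exposure (30 min, 2 h, 4 h, 8 h or 16 h). Of the other 2 libraries, which were inputs without antibody, 1 was from untreated cells and 1 from cells exposed to dTAG for 16 h. All of these cells carried the Ash2l deletion and the transgene, the untreated ones included.

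Each site was given by its chromosome and its 2 ends, after joining over all samples, and carried neither a read count nor a sample name. The list therefore shows where H3K27ac was called in at least 1 group of these fibroblasts, not when, how strongly or with what replicate error. The depth behind a site was unknown, and a gene without a site may carry H3K27ac below the peak caller's threshold. No test between groups was possible, and the values below are descriptions, read beside the same values over all protein-coding genes.

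GATA factors are zinc finger proteins that bind the sequence GATA in DNA. Gata1, Gata2 and Gata3 are best known from blood, where Gata1 drives the red cell lineage, Gata2 maintains stem and progenitor cells and Gata3 directs T cells, whereas Gata4, Gata5 and Gata6 act in heart and endoderm. The myogenic factors are basic helix-loop-helix proteins that bind E-boxes (CANNTG). Myf5 and Myod1 commit cells to skeletal muscle, Myog drives their differentiation, and Myf6 (Mrf4) acts in both phases. Myod1 is usually silent in fibroblasts, and its forced expression can turn them into muscle cells. H3K27ac marks active promoters and enhancers.

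At least 1 site was found in the window of 7 of the 10 genes, compared to 75.0% of all coding genes. The count was therefore close to that of coding genes in general. It was 5 of 6 for the GATA genes and 2 of 4 for the myogenic genes. The windows of the GATA genes were longer (49567 to 112771 bp) than those of the myogenic genes (41885 to 43227 bp). The number of sites was 12 at Gata6, 8 at Myf6, 7 at Gata3, 6 at Myf5, 5 at Gata2, 2 each at Gata1 and Gata4, and 0 at Gata5, Myod1 and Myog. Coding genes had a median of 4 sites (quartiles 0 and 8). More sites than at Gata6 were found at 12.5% of coding genes, and 25% of coding genes had none.

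**Figure D1:**
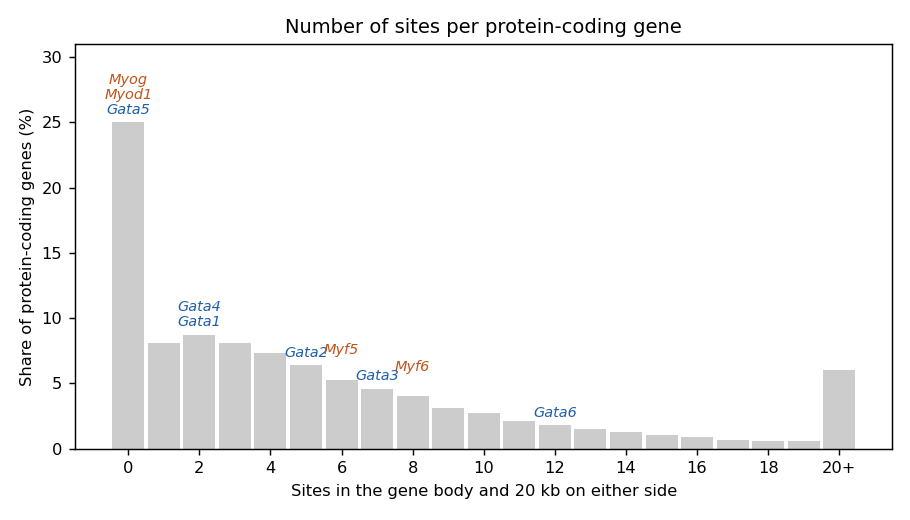
Share of protein-coding genes (y axis, %) by the number of H3K27ac sites in the gene body and 20 kb on either side (x axis, with 20 or more pooled). Names above the bars place the 10 genes, GATA genes in blue and myogenic genes in orange, from Gata5, Myod1 and Myog at 0 to Gata6 at 12 sites.

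Sites near a start site were found at fewer of the genes. A site with its middle within 1 kb of a transcription start site (TSS) of the gene itself was found at 3 of the 10 genes, Gata2, Gata3 and Gata6, compared to 54.7% of coding genes. None of the 4 myogenic genes was among them, although at Myf6 the edge of a site was 991 bp from the TSS and its middle 1256 bp. Each myogenic gene had 1 annotated TSS, whereas Gata2, Gata3 and Gata6 had 4, 6 and 6, so the families differed in the number of starts searched. Gata1 and Gata4, with 3 and 5 TSSs, had no such site. With the outermost 5′ end of each gene as its only start, the count was 0 of 10, compared to 49.6% of coding genes. A site in the gene body was found at 5 genes, Gata2, Gata3, Gata4, Gata6 and Myf6, compared to 61.3% of coding genes. Gene bodies measured 9567 to 72771 bp at the GATA genes and 1885 to 3227 bp at the myogenic genes. These counts took no account of gene length. The annotated outermost 5′ end was inside a site at 1 gene, Gata6, compared to 36.5% of coding genes. Myf5 had upstream sites only, and the sites at Gata1 lay near the TSS of a neighbour. Of the 36 sites, 28 (77.8%) had no TSS of any gene within 1 kb of their middle, compared to 81.3% of all sites, and 17 overlapped the body of a member.

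**Figure D2:**
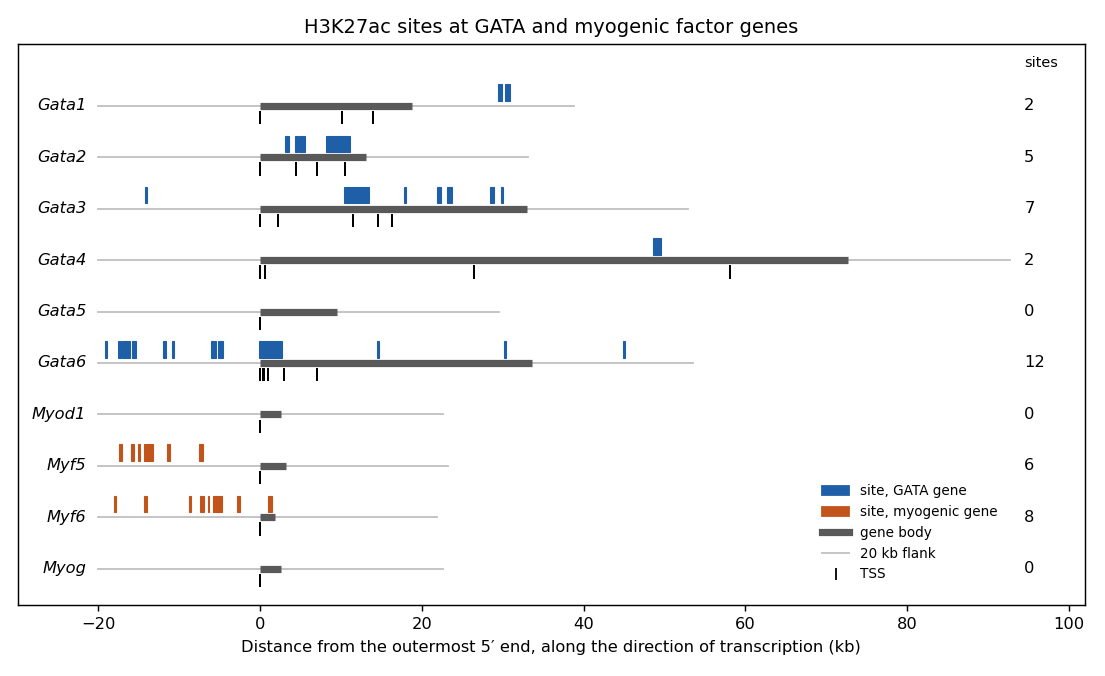
Map of the 10 loci along the direction of transcription (x axis, distance from the outermost 5′ end in kb), where boxes above each line are H3K27ac sites (blue at GATA, orange at myogenic genes), thick grey bars are gene bodies, thin lines are the 20 kb flanks and ticks below are TSSs. The number of sites stands at the right, and the 3 widest boxes, at Gata2, Gata3 and Gata6, each cover a TSS of the gene.

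The 36 sites had a median width of 438 bp and ranged from 203 to 3048 bp, compared to a median of 401 bp in the whole list. A width above 2000 bp was reached by 3 of them, 1 each at Gata3, Gata6 and Gata2, and by 4.32% of all sites. The median GC content was 49.3%, compared to 48.8% for all sites, and the median repeat-masked share was 10.5%, compared to 11.0%. In composition the sites at these genes were thus close to the list as a whole.

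Gata2 (chromosome 6, 88193891 to 88207032, plus strand, GRCm38) had 5 sites, all within the gene. Its outermost 5′ end, the start of the distal promoter, was 3104 bp from the nearest site. The second start, 4443 bp downstream, serves coding transcripts as well and was inside a site of 398 bp (88198148 to 88198545), of which 212 bp were UTR. A site of 716 bp followed after 130 bp, and 1 of 519 bp lay in the intron before it. Thus the internal start of Gata2 was inside a site and the distal start was not. A narrow site of 228 bp (88202087 to 88202314) lay in an exon, and 33 bp further began the widest one, with 2671 bp (88202348 to 88205018). It consisted of 2113 bp of intron and 558 bp of exon, was wider than 97.9% of all sites and covered the start of a transcript with a retained intron. No site was found in the 20 kb flank on either side, and the nearest beyond the gene were 108478 bp upstream, at Rpn1, and 53080 bp downstream, in an intron of Eefsec.

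An intronic element of Gata2 with an E-box (CATCTG) next to a GATA motif (AGATAA) is a well-known enhancer of blood stem cells and endothelium, bound by GATA2 itself together with the E-box binding factor TAL1. The spacing of 8 bases was searched for on both strands because of this prior knowledge. The widest Gata2 site held 1 such match, at 88203185 to 88203204, which was 9294 bp downstream of the outermost 5′ end and overlapped no exon. The sequence around it is shown because it holds the match inside the H3K27ac site, with the E-box and the GATA motif in capitals.
Gata2 intron (chr6:88203145-88203244, plus strand): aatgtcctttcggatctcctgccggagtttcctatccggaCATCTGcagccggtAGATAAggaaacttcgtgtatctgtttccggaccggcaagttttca

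On chromosomes 1 to 19 and X the same pattern occurred 799 times, and 21 of these matches (2.63%) overlapped a site. Over their whole length, 18 of 122171 sites held it. Among the 4025 sites of 2000 to 3500 bp, the class of the Gata2 site, it was found in 1 (0.0248%), the one at Gata2. The pattern was chosen from knowledge of this element, so its presence at Gata2 is not independent evidence and these counts only describe how rare the letters are. A match describes letters in the sequence and does not show that a factor was bound. Tal1, which encodes the blood factor of this element, and Lmo2, which encodes its bridging partner, had 0 sites in their windows, whereas Ldb1, the broadly expressed adaptor of the same complex, had 5.

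Gata3 (chromosome 2, 9857078 to 9890034, minus strand) carried 7 sites in its window. The widest measured 3048 bp (9876597 to 9879644), was wider than 98.5% of all sites and covered a coding TSS at 9878600, where it comprised 690 bp of UTR. It also covered a start of the antisense transcript Gm13256, and the mark at one start and at the other cannot be told apart. The outermost 5′ end, a further coding start 11434 bp upstream of that TSS, was 10390 bp from any site. The other 5 sites in the gene were intronic and between 205 and 639 bp wide, and 1 site of 231 bp lay upstream, with its middle 14128 bp from the outermost 5′ end. The stretch without a site around that 5′ end held the whole of 2 coding genes, 4930412O13Rik and 9230102O04Rik.

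Gata4 (chromosome 14, 63198922 to 63271692, minus strand), the heart and endoderm factor, was the longest of the genes but had 2 sites. Both were intronic (63222070 to 63222779 and 63222791 to 63223039) and separated by 11 bp, so that they formed a block of H3K27ac between 2 start sites. None of its 5 annotated TSSs was nearer than 8463 bp to a site, and the CpG-rich start at 63245271 was 22232 bp away. Both sites together covered 959 bp, or 0.85% of the window, compared to a median of 2398 bp at coding genes. The surroundings were not empty. The ring between 20 and 50 kb around the gene held 20 sites, the first of them 20162 bp beyond the 3′ end at the promoter of Fdft1, a gene of cholesterol synthesis, and thus just outside the window.

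Gata1 (chromosome X, 7959260 to 7978071, minus strand) had 2 sites in its window and 0 in the gene. They measured 615 bp (7947162 to 7947776) and 524 bp (7948160 to 7948683) and both lay within 1 kb of the TSS of Hdac6, which encodes a deacetylase of cytoplasmic proteins. With sites near TSSs of other genes left out, Gata1 had 0. The 3 start sites of Gata1 were 15483 to 29388 bp from these sites, and on the upstream side the next site was 95606 bp away, at Suv39h1. Gata5 (chromosome 2, 180325133 to 180334699, minus strand) had 0 sites in its window. The nearest lay 51680 bp downstream at Cables2 and 100721 bp upstream. Gata5os, its antisense neighbour, lay in the same stretch without a site.

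Gata6 (chromosome 18, 11052064 to 11085635, plus strand) carried the most sites. The widest measured 2926 bp (11051891 to 11054816), was wider than 98.3% of all sites and covered 4 of the 6 TSSs of the gene, including the outermost 5′ end. It also covered a start of 1010001N08Rik, a non-coding transcript that runs in the other direction. The site comprised 1480 bp of Gata6 exons, 736 bp of them UTR. Upstream, 8 sites of 223 to 940 bp lay within a stretch of 14608 bp, with their middles 4885 to 19029 bp from the 5′ end. All 8 were in introns of 1010001N08Rik, and 1 of them lay near a TSS of that transcript. Further sites were 2 narrow intronic ones of 274 and 213 bp and 1 of 203 bp downstream. Sites covered 10.4% of the window (7681 bp), the highest share of the 10 genes.

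Of the myogenic genes, Myf5 (chromosome 10, 107482908 to 107486134, minus strand) and Myf6 (107492853 to 107494737, minus strand) lie next to each other, with Myf6 upstream of Myf5. Their windows shared 6 sites, and the 2 genes are therefore not independent. There were 8 different sites at the pair. One of 531 bp (107493216 to 107493746) was in the body of Myf6 and comprised 257 bp of exon, 141 bp of them UTR, and 274 bp of intron. The other 7 were upstream of Myf6 and between 228 and 1082 bp wide, spread over 15570 bp, with their middles 2706 to 17977 bp from its 5′ end. None of the 8 sites had its middle within 1 kb of a TSS of any gene, and no other annotated gene overlapped the upstream ones. The 5′ end of Myf5 was 7082 bp and that of Myf6 991 bp from the nearest site. In sites per 100 kb of window, Myf6 (19.1) and Myf5 (13.9) were close to Gata6 (16.3) and above the median of coding genes (4.88). The wider region of the pair was dense as well. Between 20 and 50 kb from the gene, the density was 11.7 at Myf6, 10.0 at Myf5 and 5.0 at Gata6. Between 200 and 500 kb it was 10.2, 9.83 and 2.67, so the density at the pair was not limited to its windows.

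The widest of the upstream sites measured 1082 bp (107499441 to 107500522), with its middle 5244 bp upstream of Myf6 and 13847 bp upstream of Myf5. Its middle 200 bases are shown on the strand of the genes because this was the widest site at a myogenic gene. The E-box, in capitals, occurred 1 time in them, and 67.3% of all sites held an E-box (CANNTG) in their middle 200 bases.
Myf6 upstream (chr10:107499882-107500081, minus strand): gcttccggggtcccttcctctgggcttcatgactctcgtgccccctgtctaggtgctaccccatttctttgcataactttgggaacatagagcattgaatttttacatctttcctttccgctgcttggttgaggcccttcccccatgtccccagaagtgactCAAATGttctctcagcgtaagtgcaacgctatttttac

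Myod1 (chromosome 7, 46376474 to 46379099, plus strand) and Myog (chromosome 1, 134289989 to 134292548, plus strand) had 0 sites in their windows. Of the 10 genes, Myod1 was the farthest from a site. Its 5′ end was 211245 bp from the nearest site, farther than at 92.0% of coding genes, and it was the only member with 0 sites within 100 kb of either end. It lay in a stretch without a site of 456031 bp (46131688 to 46587718), which also held the whole of Kcnc1, a potassium channel gene, and of Otog and Ush1c, genes of the inner ear. Of the 122151 stretches between neighbouring sites, 673 were at least as long. The stretches around the 5′ ends of Gata5 and Myog measured 161968 and 136451 bp, that around Gata1 124994 bp and that upstream of Gata2 111582 bp. Of all bases outside sites, 48.6 to 56.7% lay in stretches at least as long as these 4, and 29.4% in stretches at least as long as that around Myod1. Lengths of this order were thus common by bases but not by number. Of all stretches, 96.7 to 97.9% were shorter than these 4 and 99.4% shorter than that around Myod1. The TSS of Gata5 was farther from a site than at 82.3% of coding genes and that of Myog than at 78.9%. The stretch around Myog held Adora1 as well and ended downstream at the promoter of Ppfia4, 39896 bp from the gene. In the 3 windows without a site, at Gata5, Myog and Myod1, 17.7 to 20.5% of bases were masked as repeats, compared to 17.9 to 36.0% at the other 7 genes, and none of the 3 contained an unknown base.

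Promoters rich in CpG dinucleotides are usually open in many cell types, so the CpG content of the start sites was compared. It is given as the ratio of observed to expected CpGs in 1000 bases around a TSS. Over coding genes, the median ratio at the outermost 5′ end was 0.73 with a site near a TSS and 0.23 without. With a ratio of at least 0.6, 84.7% of 10070 genes had a site near a TSS, compared to 28.9% of 11685 genes below it. Both classes were set by the outermost 5′ end, whereas the site could be near any TSS. Of the 10 genes, 8 were below this ratio, 2 of them with a site near a TSS (Gata3 and Gata6). Of the 2 above it, Gata2 had such a site and Gata5 did not. The outermost 5′ ends of Gata3 and Gata6 had ratios of 0.48 and 0.53, but their internal starts inside a site had 0.64 and 0.63 to 0.65. Gata4 had 0.17 at its outermost 5′ end and up to 0.66 at internal starts, without a site near any. The class of a gene thus did not describe the starts that carried a site. The 10 genes had 29 TSSs, of which 7 were inside a site. These 7 belonged to Gata2, Gata3 and Gata6 and had ratios from 0.36 to 0.66 (median 0.64). The 22 others ranged from 0.13 to 0.81 (median 0.37), so the ranges overlapped.

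Several CpG-rich starts lacked a site. The distal Gata2 start had a ratio of 0.77 and the Gata5 start of 0.69, and 2 neighbouring Gata4 starts had 0.66 each. At Gata6, 2 starts of transcripts with a retained intron (0.81 and 0.62) were 222 and 4231 bp from a site. In contrast, the internal Gata2 start (0.66), the Gata3 start (0.64) and 3 Gata6 starts (0.63 to 0.65) were inside a site, as was the outermost Gata6 start (0.53). The myogenic genes, whose starts were all outside a site, were lower, with 0.48 at Myod1, 0.41 at Myf5, 0.38 at Myf6 and 0.34 at Myog. Within the GATA family, starts of nearly the same CpG ratio were therefore found both inside and outside H3K27ac.

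**Figure D3:**
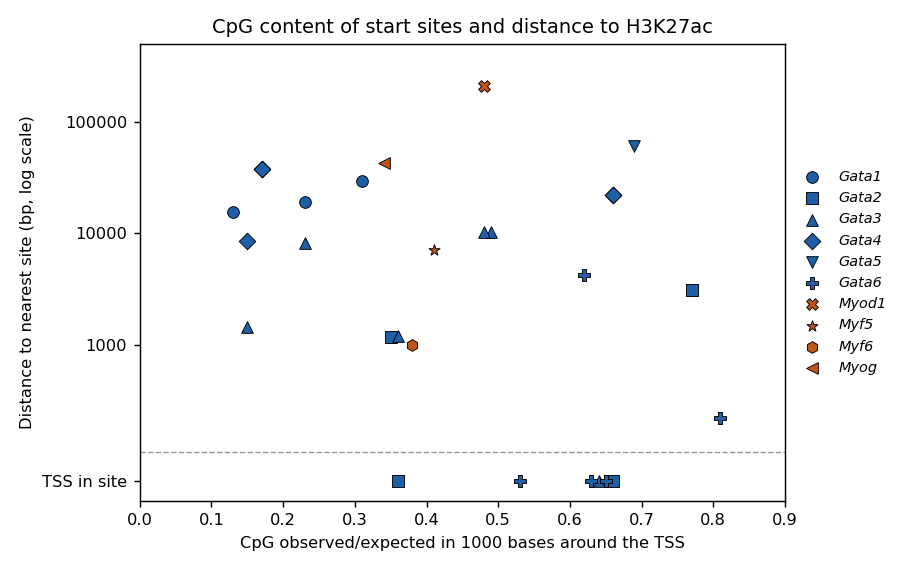
CpG observed to expected ratio in 1000 bases around each of the 29 TSSs (x axis) and distance from the TSS to the edge of the nearest H3K27ac site (y axis, bp, log scale), with symbols by gene. Starts inside a site stand on the bottom row and lie between 0.36 and 0.66, while Gata5 (0.69), Gata4 (0.66) and the distal Gata2 start (0.77) are as rich in CpGs but lie 3104 bp or more from a site.

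The RefSeq promoter table (GRCm38.p6, 250 bases before to 50 after the start) held 7 promoters of 6 of the genes, Gata1, Gata2, Gata3, Gata5, Myf5 and Myog. A site overlapped 2 of the 7, the internal Gata2 and the Gata3 promoter, compared to 39.4% of 32619 promoters. In these 300 bases the distal Gata2 promoter held 32 CpGs, more than 90.4% of all promoters, the internal one 29, Gata5 26, Gata3 22, Myog 9, Gata1 4 and Myf5 3. The median was 21 in promoters overlapping a site and 4 in those without. The 150 bases before the RefSeq start are shown for 5 of them, so that CpG-rich promoters with a site (Gata3) and without (Gata2 distal, Gata5) can be set beside the CpG-poorer Myf5 and Myog. The RefSeq start lies downstream of the GENCODE one at Gata5 and Myog, so that the last 20 and 15 bases of these stretches are UTR in GENCODE. Capitals mark CpGs.
Gata3 (chr2:9878601-9878750, minus strand): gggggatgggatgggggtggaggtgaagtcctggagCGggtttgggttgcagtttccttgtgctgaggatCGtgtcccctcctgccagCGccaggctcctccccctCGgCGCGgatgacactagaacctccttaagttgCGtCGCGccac
Gata2 distal (chr6:88193741-88193890, plus strand): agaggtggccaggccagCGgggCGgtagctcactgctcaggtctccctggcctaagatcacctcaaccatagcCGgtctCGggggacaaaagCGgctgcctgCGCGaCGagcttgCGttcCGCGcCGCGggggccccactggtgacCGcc
Gata5 (chr2:180334680-180334829, minus strand): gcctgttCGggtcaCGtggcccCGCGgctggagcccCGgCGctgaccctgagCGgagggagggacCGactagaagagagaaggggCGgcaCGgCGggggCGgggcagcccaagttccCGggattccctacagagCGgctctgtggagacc
Myf5 (chr10:107486135-107486284, minus strand): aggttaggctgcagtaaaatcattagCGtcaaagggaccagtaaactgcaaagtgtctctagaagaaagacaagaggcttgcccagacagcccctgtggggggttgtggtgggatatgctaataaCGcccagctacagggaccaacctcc
Myog (chr1:134289854-134290003, plus strand): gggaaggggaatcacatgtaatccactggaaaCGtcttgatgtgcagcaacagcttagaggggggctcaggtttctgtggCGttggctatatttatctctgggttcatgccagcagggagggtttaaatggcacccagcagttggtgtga

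The shown stretches contain 9 CpGs for Gata3, 14 each for distal Gata2 and Gata5 and 2 each for Myf5 and Myog. Over the 7 promoters, those with a site held 22 and 29 CpGs in 300 bases and the CpG-rich ones without a site 26 and 32, so the counts overlapped.

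Binding motifs of the factors themselves were counted in the 300 bases around the middle of each site, on both strands. The GATA motif AGATAA was present in 5 of the 36 sites (13.9%) and in 11.5% of all sites, and TGATAA in 3 (8.33%) and in 9.15%. The E-boxes CAGCTG and CAGGTG, preferred by myogenic factors and by other proteins of this class, were present in 2 and 4 of the 36 sites (5.56 and 11.1%), CAGCTG in 18.6% of all sites and CAGGTG in 24439 of 122171. Neither was found in the middle 300 bases of the 8 sites at Myf5 and Myf6, where AGATAA was found in 1.

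The labelled cell type was checked against marker genes. All 11 fibroblast markers, among them Col1a1, Fn1 and Pdgfra, had a site in their windows, with a median of 14 sites and up to 57 at Fn1, 44 of them in the gene body. A site near a TSS was found at 9 of 11, and at the other two, Col1a1 and Prrx1, the outermost 5′ end was inside a site whose middle lay beyond 1 kb. Of the skeletal muscle markers Ckm, Des, Myh3, Acta1 and Chrna1, all 5 had a site in the window but 0 had one near a TSS. Of 4 erythroid markers, 2 (Epor and Alas2) had a site in the window and 0 had one near a TSS. A site in the window was found at 4 of 4 endothelial, 3 of 4 cardiac muscle and 2 of 3 T cell markers. A TSS site was found at 2 of 4 endothelial markers (Cdh5 and Tek), 1 of 4 cardiac muscle markers (Nppa) and 1 of 3 T cell markers (Lck). Over all coding genes, the shares were 75.0% for the window and 54.7% near a TSS. All fibroblast, skeletal muscle and endothelial markers thus had a site in the window, which did not separate these cell types.

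Genes that work with the 10 factors were then examined. Over all coding genes, 75.0% had a site in the window and 54.7% had one near a TSS, and the counts below are read beside these shares. Of 15 partners and inhibitors of myogenic factors, all had a site in the window, with a median of 10 sites, and 12 had one near a TSS, while Mef2d had its outermost 5′ end inside a wider site. They included the E-proteins that pair with myogenic factors (Tcf3, Tcf4 and Tcf12, with 6, 79 and 15 sites), the MEF2 genes, the inhibitors of DNA binding Id1 to Id4 (6, 10, 13 and 2 sites) and the repressors Twist1 and Twist2 (7 and 13 sites). Of the 79 sites at Tcf4, 73 lay in the gene body, and these counts were not divided by window length. Msc and Tcf21, both related helix-loop-helix genes, had 2 and 1 sites and none near a TSS. The list shares Twist1 with the fibroblast markers. Of 8 upstream regulators of myogenesis, 7 had a site in the window and 3 near a TSS, among them Eya1 with 17 sites in its window, and Six4 had its outermost 5′ end inside a wider site. Pax3 and Pax7, which activate Myf5 and Myod1 in muscle progenitors, had 2 sites each and none near a TSS. Of 16 muscle target genes, which include the 5 muscle markers, 10 had a site in the window and 1, Mylpf, had one near a TSS.

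Among 10 GATA partners, 8 had a site in the window and 7 near a TSS, compared to 75.0 and 54.7% of all coding genes. Zfpm2, which encodes a cofactor of GATA4 in the heart, had 43 sites and Trps1, an atypical GATA repressor gene, had 64, the most of this list. Both are long genes with most of their sites, 41 and 60, in the gene body. Lmo2 and Tal1 had 0 sites. Of the cardiac factors, 0 of 6 (Nkx2-5, Tbx5, Tbx20, Isl1, Hand1 and Hand2) had a site in the window, beside 12 sites at Gata6 and 2 at Gata4, whose products act with them in the heart. Of 7 erythroid targets, 3 had a site in the window and 0 near a TSS. Of 12 factors of other lineages, 4 had a site in the window and 1, Foxa1, near a TSS. No test was run on these counts, since the lists were chosen with earlier results of these data known.

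**Figure D4:**
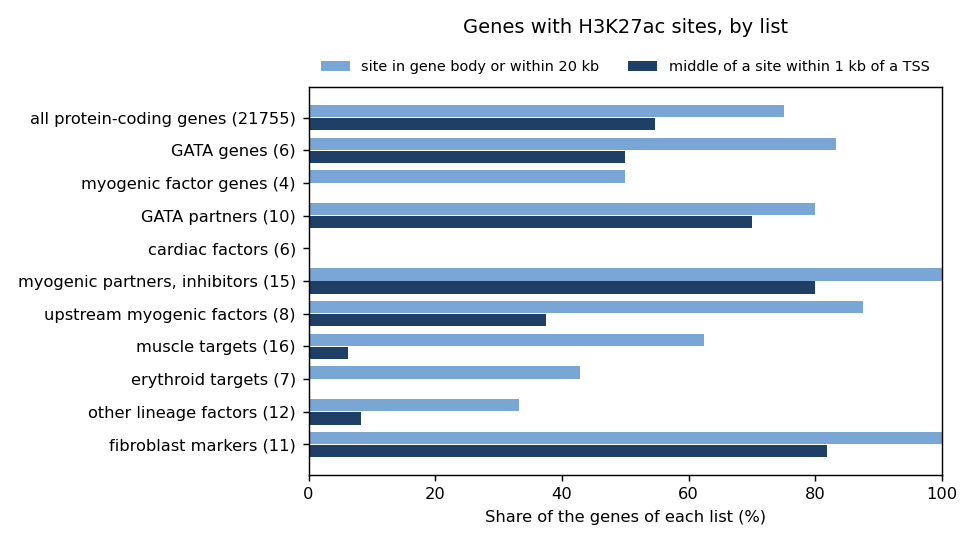
Share of the genes of each list (x axis, %) with a site in the gene body or within 20 kb (light bars) and with the middle of a site within 1 kb of a TSS (dark bars); the number of genes stands in parentheses. Cardiac factors are at 0 for both, myogenic factors reach 50.0% and 0%, and the myogenic partners and inhibitors reach 100% and 80.0%. All protein-coding genes reach 75.0% and 54.7%.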

How the data were processed

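H3K27ac ChIP-seq of mouse embryo fibroblasts was analysed. After trimming (Trim Galore), the authors used BWA for alignment to mm10 (GRCm38.p6), removed reads by ENCODE guidelines, merged replicates with Picard, called narrow peaks with MACS (MACS2 in the submitters' processing notes) and joined the peaks of all samples. The deposited values are positions in base pairs. The version, threshold and way of joining are not given in the sources used here. If overlapping peaks were merged, widths can exceed those of any sample.

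Starts were taken as zero-based, which makes 200 bp the smallest width. Genes were those of GENCODE release M21, an earlier release than the authors used. A site was assigned to each gene whose body or 20 kb flank it overlapped, and to a TSS if its middle was within 1 kb. Repeats were the masked bases of the reference. Groups were taken from the labels but could not be compared. The members and lists were chosen with earlier results of these data known. All 10 members were named, as were neighbours with a TSS in a window and, from each list, genes without sites or with the most. Genes at the next site outside a window, at the ends or inside of a stretch without sites, and other list genes were named after their values were seen, and some list genes are not reported here by name. Window counting was tested on simulated data, where 200 of 200 windows were counted right. Alternatives were other flanks and TSS windows, site middles or any overlap, merged sites, fewer sites, and coding transcripts or outermost 5′ ends only. Python 3.11.15, numpy 2.4.6, pandas 2.3.3 and matplotlib 3.10.9 were used.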

Additional observations from a re-analysis of the deposited data

How the results depend on the processing

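Of 24 alternatives to the counts over all 10 genes, 18 stayed within 1.5-fold. The number of genes with a site in the window was between 5 and 9 in place of 7. It was 5 for the gene body alone and with flanks of 5 kb, 8 with 50 kb and 9 with 100 kb, where Myod1 remained without a site. The number of different sites was 36 and changed with the window, to 17 for the gene body alone, 20 with 5 kb, 73 with 50 kb and 137 with 100 kb, since wider windows hold more sites, and to 23 when sites less than 1 kb apart were merged. The number of genes with a site near a TSS was 3 and became 0 with the outermost 5′ end only, since the middle of the Gata6 site over that end was 1289 bp away and the sites at Gata2 and Gata3 lay at internal starts. It was 4 with windows of 2 or 3 kb and with any overlap, where Myf6 was added, so the absence of myogenic genes depended on the rule. For single genes, 115 of 150 alternatives stayed within 1.5-fold. With the window, Gata4 ranged from 2 to 38 sites, Gata5 from 0 to 14 and Myog from 0 to 9, and Gata4 had 1 site without the narrowest 25% of sites or with sites merged. No paired analysis was possible because sites carried no values for single samples, and for that reason no replicate could be left out. Read depth limits which sites were called and was unknown.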
